A study of Mus musculus with 24 samples.

Results

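The effect of environmental enrichment on the hippocampal transcriptome of wild-type (WT) mice was measured by comparing whole-hippocampus RNA from mice kept in an enriched environment (EE) with RNA from mice kept in standard housing (SH). The comparison used 8 of the 24 libraries of the series, namely 3 WT EE libraries (16, 17 and 33A) and 5 WT SH libraries (10, 11, 13, 14 and 15), which are the WT libraries that the study retained for its own tests. All were from male mice on a C57-Bl/6J background that had not been used in any experiment, aged 12 weeks by the labels, where the study's methods give a range in months. EE mice had lived since before birth in large cages with a running wheel, tubes and toys, and SH mice in standard cages. The remaining groups were SH and EE mice with a kinase-dead mutation (D194A) of MSK1 (MSK1 KD), a kinase downstream of ERK and p38 that is encoded by Rps6ka5. The 2 lines were bred separately, and the MSK1 KD libraries entered the WT comparison only through the shared estimate of the spread. Nothing in the sources ties a library to a litter or cage, so p-values measure the spread between these libraries.

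The study left out 3 further WT libraries that passed quality control, 12 (SH), 31B and 35A (both EE), because their expression correlated poorly with the rest of their group. That choice was made on the same measurements that are compared here, so the values of these 3 libraries are given beside the falling genes and the main results. Another WT library, 33B (EE), failed quality control with 54.1% of its counted fragments outside single genes, against 14.3% to 18.6% in the other 11. The 8 retained libraries held 23197006 to 45373840 counts on genes. Levels are given as CPM, the counts of a gene relative to all counts on genes of its library, with the library totals scaled by the TMM method of edgeR. A floor of 3 counts corresponded to 0.0661 to 0.130 CPM in the 8 libraries and covers counting error only. The tissue label was checked with region markers. Prox1, a factor of dentate granule cells, was at 106 to 136 CPM in WT SH and 93.2 to 121 CPM in WT EE. Wfs1, a marker of CA1 pyramidal cells, was at 172 to 219 and 180.0 to 224 CPM. Markers of neighbouring regions stood high in single libraries. The thalamic factor Tcf7l2 was at 36.5 CPM in the unused SH library 12 and at most 5.23 CPM in the retained SH libraries, and the striatal receptor Drd2 reached 9.14 CPM in 1 retained SH library against a median of 3.62 CPM.

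The hippocampus is one of the few regions of the adult mammalian brain in which neurons continue to be born. In the dentate gyrus, radial precursors that express Sox-family factors give rise to granule neurons through a series of basic helix-loop-helix (bHLH) factors, of which Neurod1 acts during the differentiation of granule cells. Enrichment with running is widely used to increase the survival of these new neurons. The choroid plexus, an epithelium that secretes cerebrospinal fluid, lies against the hippocampus in the lateral ventricle, and its RNA can be present in a dissected sample.

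Among 18701 genes tested, 664 were called. A call required a Benjamini-Hochberg adjusted p no higher than 0.05 in the quasi-likelihood test of edgeR, and a change of at least 1.3-fold (0.38 on the log2 scale). Of these, 651 rose in WT EE (3.48% of the genes tested) and 13 fell (0.0695%). The rising genes reached large fold changes, with 130 at a log2 fold change of at least 2 and a median of 0.99. The falling genes lay between -0.81 and -0.39, with a median of -0.44. At an unadjusted p under 0.05 the split was less uneven, with 1716 genes higher and 844 lower. The median log2 fold change of all genes tested was 0.00, with quartiles of -0.10 and 0.15, and 50.5% of genes lay below 0. When the 5 unused libraries of all groups that passed quality control were returned to the fit (22 libraries), no gene was called by edgeR, the lowest adjusted p was 0.194, and 1598 genes had an unadjusted p under 0.05.

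**Figure D1:**
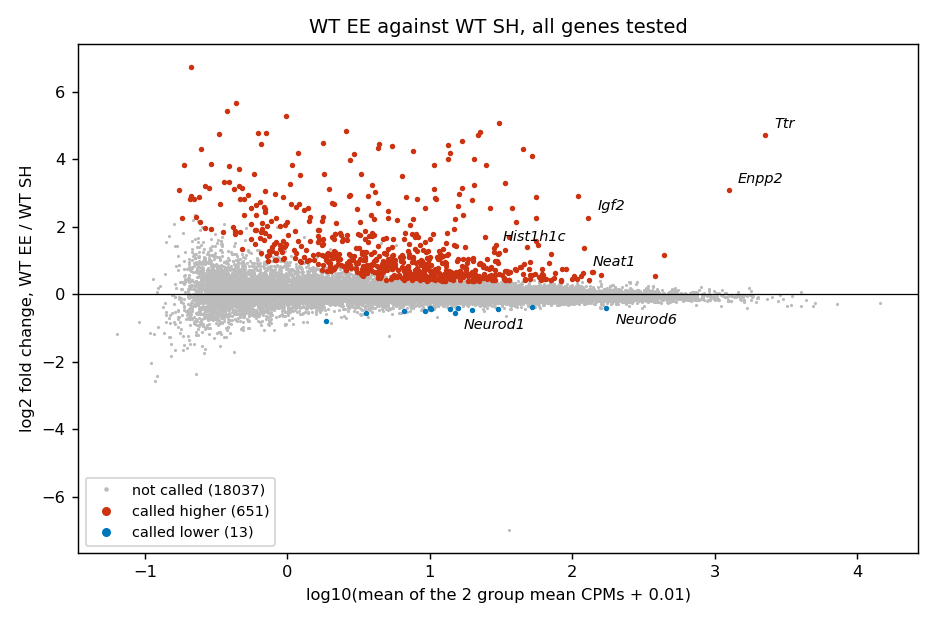
Log2 fold change of WT EE over WT SH (vertical) against the log10 of the mean of both group mean CPMs plus 0.01 (horizontal) for the 18701 genes tested, 1 point per gene. The 651 genes called higher (red) extend far above 0, with Ttr at 4.71, while the 13 genes called lower (blue) lie within 0.81 of 0.

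The 13 falling genes were regulators of neuronal identity (Neurod1, Neurod6, Sox1, Dlx5 and Lhx9), secreted Wnt pathway ligands (Wnt7a and Ndp), matrix and surface-glycan genes (Tnc and B3gat2), a potassium channel (Kcnn3), a cell death gene (Hrk), Egfem1, and the noncoding antisense gene A730056A06Rik. Sequence upstream of 4 of them is shown, since Neurod1 and its relatives bind the E-box (CANNTG) and these stand for the neurogenic, Wnt and matrix members. Capitals mark each E-box. Sequences are RefSeq GRCm38.p6, read 5′ to 3′ on the gene's own strand and ending at the first annotated exon of any gene. The Neurod1 stretch therefore stops short of the annotated 5′ end of Neurod1 at 79456751.
Neurod1, chr2:79456786-79456886, minus strand: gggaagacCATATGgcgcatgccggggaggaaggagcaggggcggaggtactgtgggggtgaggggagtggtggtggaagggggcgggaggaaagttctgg
Neurod6, chr6:55681264-55681513, minus strand: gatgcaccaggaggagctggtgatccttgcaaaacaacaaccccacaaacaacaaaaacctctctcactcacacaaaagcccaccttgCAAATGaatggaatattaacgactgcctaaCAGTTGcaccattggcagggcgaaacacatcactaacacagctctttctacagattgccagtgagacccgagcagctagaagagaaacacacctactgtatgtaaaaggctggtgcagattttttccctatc
Ndp, chrX:16911775-16912024, minus strand: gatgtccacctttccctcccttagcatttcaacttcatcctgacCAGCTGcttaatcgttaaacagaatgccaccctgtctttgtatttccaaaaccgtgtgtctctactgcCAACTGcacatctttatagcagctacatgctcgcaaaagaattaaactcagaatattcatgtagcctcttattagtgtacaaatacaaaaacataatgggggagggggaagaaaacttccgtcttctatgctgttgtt
Tnc, chr4:64047016-64047265, minus strand: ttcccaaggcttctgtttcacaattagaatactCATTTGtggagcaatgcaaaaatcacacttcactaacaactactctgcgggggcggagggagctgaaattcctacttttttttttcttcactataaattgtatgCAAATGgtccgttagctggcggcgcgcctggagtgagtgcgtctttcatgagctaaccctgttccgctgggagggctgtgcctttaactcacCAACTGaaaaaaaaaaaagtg

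The Neurod1 stretch of 101 bases held 1 E-box, the Neurod6 and Ndp stretches of 250 bases held 2 each, and that of Tnc held 3. None of the 4 held TGACG on either strand, the short form of the cAMP response element that CREB, a substrate of MSK1, binds. Of the 11 falling genes found in the RefSeq table of promoters (Dlx5 and B3gat2 were not matched), which have 13 windows of the 250 bases before a start, 9 windows (8 genes) held an E-box on either strand, where 66.2% of all 32851 such windows did. The window searched for Neurod1 is longer than the stretch printed. The letters TGACG were found in 2 of the 13 windows, of Egfem1 and Hrk, and in 17.8% of all windows, and the full TGACGTCA in 0 and in 1.55%. A match of letters is a description of the window and not of binding.

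Neurod1, the bHLH factor of granule neuron differentiation (chr2:79452521-79456751, minus strand), had the lowest adjusted p of the 13. Its levels were 18.1, 17.4, 19.3, 19.05 and 15.1 CPM in WT SH libraries 10, 11, 13, 14 and 15, and 11.7, 11.05 and 13.5 CPM in WT EE libraries 16, 17 and 33A, the order kept below. Every retained EE library lay below every retained SH library (log2 fold change -0.55 ± 0.11 (SE), adjusted p = 0.003103). The unused SH library held 14.1 CPM, below all 5 retained SH libraries, and the unused EE libraries 15.1 and 16.7 CPM, so that over the 11 libraries the groups overlapped. Cerkl on the same strand and Gm26755 on the other share part of the locus, and the counting did not use strand. Reads over exons of both Neurod1 and another gene were counted for neither.

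Neurod6, a related factor of pyramidal neurons (chr6:55677822-55681263, minus strand), was far more abundant, at 196, 191, 190.1, 239 and 172 CPM in WT SH and 161, 146 and 141 CPM in WT EE. The EE libraries again lay below all retained SH libraries (log2 fold change -0.41 ± 0.10 (SE), adjusted p = 0.01296). The unused SH library held 159.6 CPM, below EE library 16 and below the unused EE libraries at 167 and 165 CPM, so that the groups overlapped over 11 libraries. Sox1, a factor of neural precursors (chr8:12395295-12400126, plus strand), was at 24.2, 22.8, 18.1, 24.6 and 25.1 CPM in WT SH and 15.9, 16.7 and 17.3 CPM in WT EE (log2 fold change -0.47 ± 0.11 (SE), adjusted p = 0.0139), with no overlap over the 8 libraries. Both unused EE libraries, at 18.04 and 14.9 CPM, were also below every SH library, the unused one included. Sox1ot, a transcript, overlaps Sox1 on the same strand, and reads over exons of both were counted for neither.

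Among the homeobox genes, Dlx5, a factor of forebrain inhibitory neurons (chr6:6877805-6882085, minus strand), was at 4.203, 4.23, 3.43, 4.86 and 4.33 CPM in WT SH and 2.599, 2.85 and 3.13 CPM in WT EE (log2 fold change -0.55 ± 0.15 (SE), adjusted p = 0.0379). Lhx9, a LIM homeobox factor that is also a thalamic marker (chr1:138825186-138848577, minus strand), was at 18.7, 17.8, 17.5, 19.6 and 15.8 CPM in WT SH and 14.6, 11.2 and 14.9 CPM in WT EE (log2 fold change -0.40 ± 0.11 (SE), adjusted p = 0.0492). In both, the EE and SH ranges of the 8 libraries did not overlap. The unused SH library lay below the retained ones for Dlx5, at 3.06 CPM, and inside their range for Lhx9, at 17.8 CPM. The unused EE libraries held 2.55 and 3.28 CPM of Dlx5, and 17.6 and 11.1 CPM of Lhx9, of which the value in 31B lay inside the SH range.

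Among secreted ligands, Wnt7a, a Wnt that acts on neural progenitors, synapses and brain vessels (chr6:91363981-91411363, minus strand), was at 13.7, 18.01, 15.1, 14.2 and 19.04 CPM in WT SH and 13.5, 10.7 and 11.2 CPM in WT EE (log2 fold change -0.44 ± 0.12 (SE), adjusted p = 0.0406). Ndp, which encodes norrin, an astrocytic ligand of the receptor Fzd4 (chrX:16885521-16911774, minus strand), was at 8.37, 6.39, 7.56, 7.98 and 8.15 CPM in WT SH and 5.91, 4.701 and 5.71 CPM in WT EE (log2 fold change -0.50 ± 0.13 (SE), adjusted p = 0.0322). Ndp was lower in all 5 EE than in all 6 SH libraries, since the unused EE libraries held 5.41 and 6.03 CPM and the unused SH library 8.45 CPM. Wnt7a was not, with 16.6 CPM in library 31B and 13.3 CPM in library 35A, of which the first lay within the SH range.

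Tnc, tenascin C, a matrix glycoprotein of neural stem cell niches (chr4:63959785-64047015, minus strand), was at 9.63, 11.5, 11.8, 10.8 and 9.91 CPM in WT SH and 8.44, 6.31 and 8.16 CPM in WT EE (log2 fold change -0.49 ± 0.13 (SE), adjusted p = 0.0289). Unused SH library 12 had the highest Tnc level, 17.95 CPM, and unused EE library 35A held 12.6 CPM, above the retained SH libraries. B3gat2, a glucuronyltransferase that builds the HNK-1 glycan of neural surface proteins (chr1:23761753-23849158, plus strand), was at 12.6, 10.7, 10.3, 11.3 and 12.4 CPM in WT SH and 9.05, 6.67 and 9.96 CPM in WT EE (log2 fold change -0.41 ± 0.11 (SE), adjusted p = 0.0444), and its EE and SH libraries stayed apart over all 11.

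Kcnn3, the SK3 calcium-activated potassium channel (chr3:89520164-89675132, plus strand), was at 34.1, 31.6, 31.2, 37.5 and 37.7 CPM in WT SH and 26.2, 20.7 and 29.7 CPM in WT EE (log2 fold change -0.43 ± 0.11 (SE), adjusted p = 0.0195), but the unused EE libraries, at 32.5 and 40.7 CPM, lay within or above the SH range. Hrk, a BH3-only promoter of apoptosis (chr5:118164648-118189478, plus strand), was at 57.5, 54.4, 62.02, 61.2 and 61.6 CPM in WT SH and 46.5, 33.8 and 55.3 CPM in WT EE (log2 fold change -0.39 ± 0.11 (SE), adjusted p = 0.0406), the member in which a retained EE library, 33A, was not below every retained SH library. The unused EE libraries held 57.5 and 60.2 CPM of Hrk, within the SH range, and the unused SH library 51.6 CPM. Egfem1, an EGF-like and EMI domain gene (chr3:29082023-29691209, plus strand), was at 12.00, 11.8, 11.8, 11.5 and 10.8 CPM in WT SH and 8.98, 7.996 and 8.86 CPM in WT EE (log2 fold change -0.43 ± 0.09 (SE), adjusted p = 0.00561), while both unused EE libraries, at 11.2 and 11.7 CPM, were within the SH range. A730056A06Rik, annotated antisense to Rgma (chr7:73314003-73375774, minus strand), had the largest fold change of the 13, at 2.41, 2.12, 2.25, 2.61 and 2.502 CPM in WT SH and 1.11, 1.53 and 1.43 CPM in WT EE (log2 fold change -0.81 ± 0.21 (SE), adjusted p = 0.0296), and was lower in all 5 EE than in all 6 SH libraries. Because strand was not used in counting, reads over exons of both genes were set aside as ambiguous and counted for neither. Reads of either strand over its own exons alone were counted for A730056A06Rik.

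Over the 13 genes, 12 did not overlap between the 3 EE and 5 SH libraries, where 4.21% of all genes tested were lower without overlap. Those 12 were called from the same libraries, so nothing is read from that count. Over 5 EE and 6 SH libraries 4 (A730056A06Rik, Ndp, Sox1 and B3gat2) were lower without overlap, where 0.69% of all genes were. These libraries include the 8 that gave the calls, so nothing is read from this count either. Of the 17 fits that each left out 1 library, the call was kept in 5 for Lhx9, in 10 for Dlx5, Ndp and B3gat2, in 11 for A730056A06Rik and Hrk, in 13 for Tnc and Wnt7a, in 14 for Neurod6 and Kcnn3, in 15 for Sox1, in 16 for Egfem1 and in 17 for Neurod1. These counts include 9 fits that left out an MSK1 KD library, each of which kept 11 to 13 of the 13 calls. The 8 fits that left out a WT library each kept 1 to 9 of the 13. The unused EE library 31B was below every retained SH library in 7 of the 13 and 35A in 8, while both were below in 6, against 9.17% of all genes tested. The unused SH library was below every retained SH library in 5, against 22% of all genes. The 13 were called for high values in these same retained SH libraries, so nothing is read from these counts. Of the retained EE libraries, 17 held the lowest value for 9 of the 13. Without it 2 genes in all were called lower, of which 1 was among the 13. The genes called lower in all numbered 63 without EE library 33A, 6 without SH library 14 and 20 without MSK1 KD SH library 5. In the fit of 22 libraries all 13 stayed below 0, between -0.69 and -0.19, and 11 had an unadjusted p under 0.05, but their adjusted p were 0.203 to 0.662. Of the 18482 genes tested in that fit, 1598 had an unadjusted p under 0.05. The 22 libraries include the 17 that gave the calls, so nothing is read from the kept signs or the unadjusted p. In bulk tissue, fewer cells of a type and less RNA per cell cannot be told apart.

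**Figure D2:**
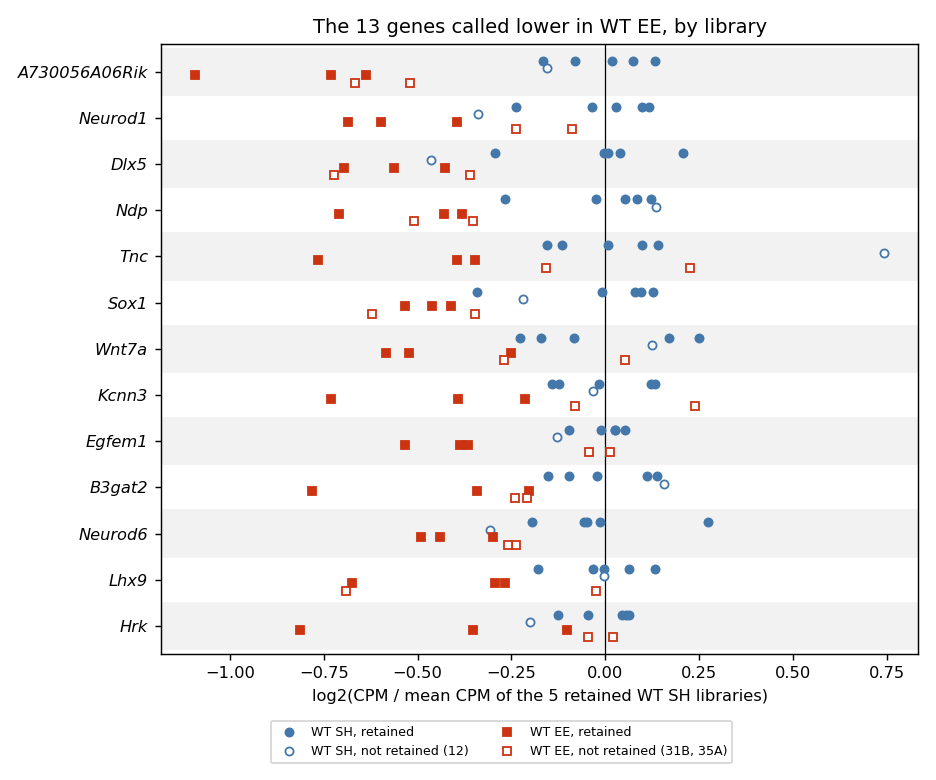
Level of each of the 13 genes called lower, as the log2 of its CPM over the mean of the 5 retained WT SH libraries (horizontal), 1 point per library, with filled symbols for retained and open symbols for unused libraries. Retained EE libraries (red squares) lie to the left of retained SH libraries (blue circles) for 12 genes, and the unused EE libraries lie among the SH libraries for several, such as Kcnn3 and Egfem1.

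The lists of cell type genes described below were chosen with earlier results known and carry no test of their own. Bare values in parentheses are log2 fold changes, with the adjusted p of edgeR. Among the 33 tested genes of immature neurons and neurogenesis, 3 fell (Neurod1, Neurod6 and Sox1) and none rose, beside 0.0695% and 3.48% of all genes tested. Of the 33, 28 lay below 0, with a median log2 fold change of -0.15 beside 0.00 for all genes. The median was also -0.14 over the 22 libraries. Dcx, the microtubule protein of migrating neuroblasts, was not called (-0.07, adjusted p = 0.916), nor was Sox2, a precursor factor (-0.32, adjusted p = 0.105), Eomes (-0.12, adjusted p = 0.956), or the proliferation marker Mki67 (-0.01, adjusted p = 0.991). Of 30 tested interneuron genes, 1 fell (Dlx5) and 26 lay below 0, with a median of -0.14. The interneuron neuropeptide Sst (-0.12, adjusted p = 0.7301), the calcium buffer Pvalb (0.07, adjusted p = 0.888) and Gad1, which makes GABA (-0.12, adjusted p = 0.386), were not called.

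Genes of mature excitatory neurons were read beside the shares over all genes tested, 3.48% higher and 0.0695% lower. None of 18 pan-neuronal genes was called, with a median of -0.11, and the synaptic vesicle gene Syt1 was at 1614 ± 66.8 CPM in WT SH and 1433 ± 31.6 CPM in WT EE (-0.17, adjusted p = 0.148). No dentate granule cell gene of 17 was called (median -0.11), with Calb1, calbindin, at 113 ± 13.8 CPM in WT SH and 92.5 ± 4.81 CPM in WT EE (-0.29, adjusted p = 0.204), and none of 12 CA1 genes (median -0.14). Over the 22 libraries the dentate median was 0.07, on the other side of 0. Of 18 CA2 and CA3 genes, 2 rose, Coch (0.99, adjusted p = 0.0115) and the kinase Map3k15 (0.84, adjusted p = 0.0174), and the list median was -0.05. Over the 22 libraries Coch was at 0.50 and Map3k15 at 0.45. The unused EE libraries 31B and 35A held 4.01 and 6.66 CPM of Coch and 1.72 and 2.38 CPM of Map3k15. The unused SH library held 9.33 CPM of Coch and 2.89 CPM of Map3k15.

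Receptor and synapse genes lay slightly below 0 without a call. All 17 ionotropic glutamate receptor genes tested were below 0 (median -0.13), among them the AMPA receptor subunits Gria1 (-0.13, adjusted p = 0.578) and Gria2 (-0.16, adjusted p = 0.319) and the kainate subunits Grik2 (-0.22, adjusted p = 0.157) and Grik3 (-0.25, adjusted p = 0.241). The corresponding counts were 6 of 7 metabotropic glutamate receptor genes (median -0.16), 13 of 15 GABA receptor genes (-0.15), 24 of 26 postsynaptic density genes (-0.09) and 24 of 31 vesicle and release genes (-0.09). Over the 22 libraries these 5 medians lay between -0.10 and -0.01. Lrrtm2, a synaptic adhesion protein, had the lowest fold change of the postsynaptic list (-0.33, adjusted p = 0.0635). The scaffold gene Homer2 (-0.32, adjusted p = 0.0212) had an adjusted p under 0.05 with a change under the threshold of size. Of 7 small and large conductance potassium channel genes, Kcnn3 alone was called.

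Neuronal activity genes and the MSK1 pathway were examined because MSK1 acts between neuronal activity and transcription. None of 50 activity genes was called (median -0.04), and the immediate early factor Egr1 was at 181 ± 18.98 CPM in WT SH and 137 ± 29.6 CPM in WT EE (-0.40, adjusted p = 0.166). Arc, an immediate early gene of synaptic plasticity, was at 178 ± 38.6 CPM in WT SH and 134 ± 38.9 CPM in WT EE (-0.42, adjusted p = 0.427). None of the 12 genes of the signalling cascade from Bdnf to Arc was called (median -0.10), with Rps6ka5, MSK1 itself, at 25.4 ± 2.11 CPM in WT SH and 21.1 ± 0.801 CPM in WT EE (-0.27, adjusted p = 0.0732). Bdnf was at 38.4 ± 2.67 CPM in WT SH and 42.5 ± 4.397 CPM in WT EE (0.15, adjusted p = 0.612). None of 15 ERK feedback genes was called, with Spry4, an inhibitor of ERK signalling, at 17.7 ± 1.71 CPM in WT SH and 13.1 ± 2.702 CPM in WT EE (-0.43, adjusted p = 0.0637) and Spred2 at 107 ± 4.28 CPM in WT SH and 86.98 ± 13.99 CPM in WT EE (-0.30, adjusted p = 0.0607). Spry4 was called under 4 of 26 alternatives (lowest adjusted p = 0.00646, without lettered libraries) and Egr1 under 3 (lowest adjusted p = 0.0141, with no filter). Over 22 libraries the log2 fold changes were -0.09 for Spry4, -0.03 for Egr1 and -0.05 for Arc. The unused EE libraries held 175 and 259 CPM of Egr1 and the unused SH library 128 CPM.

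Glial lists were read beside the same shares. Of 29 astrocyte genes 1 rose, Slc7a10, a neutral amino acid transporter, at 25.7 ± 1.75 CPM in WT SH and 38.2 ± 2.04 CPM in WT EE (0.57, adjusted p = 0.000777), and the list median was -0.05. The intermediate filament gene Gfap was not called (0.09, adjusted p = 0.687). Of 25 myelin genes none was called (median 0.00, or -0.16 over 22 libraries), among them Ermn (-0.42, adjusted p = 0.204) and Mbp, myelin basic protein (-0.15, adjusted p = 0.403). None of 20 oligodendrocyte precursor genes was called, although 17 lay below 0 (median -0.12). The lineage factor Nkx2-2 had the lowest fold change of them (-0.59, adjusted p = 0.0576), and Ptprz1, a receptor phosphatase, had an adjusted p under the threshold with a change under that of size (-0.35, adjusted p = 0.0365). None of 25 microglial genes was called, with 19 below 0 and a median of -0.16, and the microglial factor Sall1 was at 30.3 ± 2.498 CPM in WT SH and 23.9 ± 2.91 CPM in WT EE (-0.34, adjusted p = 0.0418), under the threshold of size. Sall1, Laptm5 and Gpr34, 3 of the 25, were lower in every one of 5 EE than of 6 SH libraries, where 0.69% of all genes tested were.

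**Figure D3:**
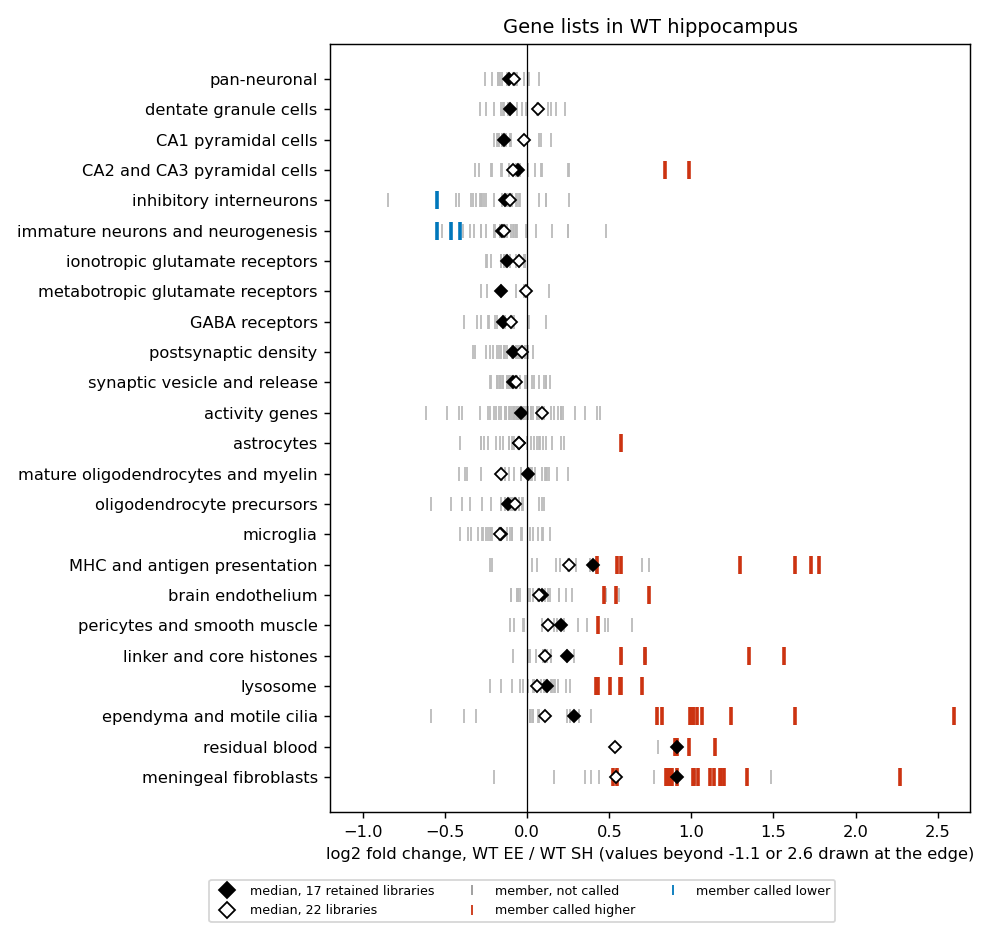
Log2 fold change of WT EE over WT SH (horizontal) for the tested members of 24 gene lists (rows), with 1 tick per gene, coloured where called, and diamonds for the list median in the 17 retained libraries (filled) and the 22 libraries (open). Neuronal and glial medians lie close to 0, and those of the meningeal and blood lists at 0.91 and 0.92 in the retained set.

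Antigen presentation genes rose in part, with 7 of 20 tested members called (median 0.40). The counts of this paragraph stand beside the 3.48% of all genes tested that rose. The class II genes H2-Eb1 (1.78, adjusted p = 4.30e-05), Cd74 (1.73, adjusted p = 0.000176) and H2-Aa (1.63, adjusted p = 0.00174) led them, all at low levels, with H2-Aa at 0.6101, 1.598, 0.8401, 0.611 and 0.7101 CPM in WT SH and 3.14, 2.81 and 2.09 CPM in WT EE. The SH and EE ranges of H2-Aa did not overlap in the 8 libraries, where 8.18% of all genes tested were higher without overlap, but the unused EE libraries held 0.166 and 0.866 CPM and the unused SH library 2.09 CPM, and over 22 libraries the log2 fold change was 0.76. Of 26 endothelial genes 3 rose, Bsg, Slco1c1 and Ocln, while Cldn5, a defining junction protein of brain endothelium, was not called (0.04, adjusted p = 0.931). Of 14 pericyte and smooth muscle genes 1 rose, Vtn (0.43, adjusted p = 0.00689).

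Choroid plexus genes had the highest median of the lists. Of 25 tested members of the epithelial list, 24 rose (median 4.00), and Ttr, the thyroid hormone carrier transthyretin, was at 28.5, 686, 36.3, 49.04 and 34.4 CPM in WT SH and 4738, 3692 and 4651 CPM in WT EE (log2 fold change 4.71 ± 0.89 (SE), adjusted p = 0.00174). Genes of the list took 0.0107, 0.0888, 0.0117, 0.0123 and 0.0108% of all gene counts in the retained SH libraries and 0.575, 0.456 and 0.573% in the retained EE libraries. The means differed by 0.508 percentage points (0.535 ± 0.0679 against 0.0269 ± 0.0346, SD). The unused libraries stood the other way, with 0.01104 and 0.0102% in EE and 0.205% in SH, and over the 11 libraries the difference was 0.269 points. Ependymal genes (10 of 24 called higher), meningeal fibroblast genes (17 of 25) and blood genes (4 of 5) rose as well, where 3.48% of all genes tested did. On the choroid, ependymal or meningeal lists were 51 of the 651 rising genes, a count capped by the 25, 24 and 25 tested genes of these lists.

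**Figure D4:**
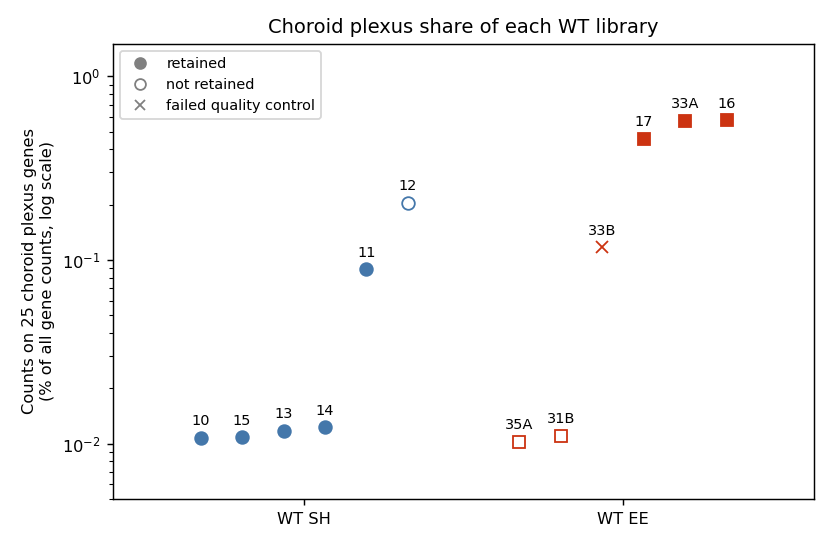
Percent of all gene counts on 25 choroid plexus genes (vertical, log scale) in each WT library, labelled by its code, for WT SH and WT EE. The 3 retained EE libraries lie at 0.456% to 0.575%, above every SH library, and the unused EE libraries 31B and 35A lie at 0.0110% and 0.0102%, with the lowest SH libraries.

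For most of the 651 rising genes, the unused EE libraries lay in the range of retained SH libraries or below it. Both unused EE libraries lay above every retained SH library for 27 of them (4.15%), against 10.2% of all genes tested, and both lay at or below the highest retained SH library for 487. The unused SH library lay above every retained SH library for 479 (73.6%), against 22.9% of all genes. The 651 were called for low values in these same retained SH libraries, so the shares over all genes are not a like comparison. Together the 651 genes took 0.656% to 0.840% of counts in retained SH libraries, 1.78% to 1.99% in retained EE libraries, 1.14% in library 12, and 0.638% and 0.696% in 31B and 35A. With the mean level of the choroid plexus list as a covariate edgeR called no gene, with 1048 genes at an unadjusted p under 0.05. Among the rising genes 464 then stayed above 0, and 11 of the 13 falling genes below 0, the exceptions being A730056A06Rik (0.14) and Ndp (0.11). Every retained EE library of both genotypes held a higher share of choroid plexus counts than every retained SH library (at least 0.114% against at most 0.0888%). The covariate therefore could not be separated from housing, and nothing is read from that fit. Whether choroid plexus tissue took part in the falls was not tested.

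Abundant rising genes that are not choroid markers by name were also looked at. List counts among them stand beside shares of 3.48% higher and 0.0695% lower over all genes tested. Neat1, a nuclear noncoding RNA that builds paraspeckles, was at 94.3 ± 14.5 CPM in WT SH and 145 ± 26.2 CPM in WT EE (0.62, adjusted p = 0.006402). The unused EE libraries 31B and 35A held 86.2 and 80.6 CPM of Neat1, and the unused SH library 123 CPM. Ptgds, prostaglandin D2 synthase of leptomeninges, was at 269.9 ± 42.2 CPM in WT SH and 609.9 ± 307 CPM in WT EE (1.17, adjusted p = 0.00483). Its EE libraries held 753, 819 and 258 CPM, so that 33A lay inside the SH range of 218 to 314 CPM, and the call was lost without library 16 (adjusted p = 0.0548) or 17 (0.0857). The unused EE libraries held 155 and 507 CPM of Ptgds, and the unused SH library 375 CPM. The level of the lysosomal protease Ctsd was 128 ± 10.99 CPM in WT SH and 190.2 ± 7.12 CPM in WT EE (0.57, adjusted p = 0.0001503). Of 27 lysosomal genes 6 rose (median 0.12), among them the cholesterol carrier Npc2 (0.50, adjusted p = 3.06e-05) and Arsg (0.70, adjusted p = 5.48e-05). The unused EE libraries held 133 and 126 CPM of Ctsd, 45.7 and 40.9 CPM of Npc2, and 19.5 and 19.3 CPM of Arsg. The unused SH library held 152 CPM of Ctsd, 62.9 CPM of Npc2 and 38.7 CPM of Arsg. The growth factor Igf2 (2.27, adjusted p = 1.10e-06) and its binding proteins Igfbp2 and Igfbp7 were the 3 genes called of 13 in the insulin-like growth factor list. Igf2 was at 29.0 and 60.5 CPM in the unused EE libraries and at 125 CPM in the unused SH library. Of 50 Wnt pathway genes 5 rose, Fzd4 (1.06, adjusted p = 0.0002401), Sfrp5, Sfrp1, Lrp5 and Fzd7, and 2 fell, Wnt7a and Ndp. Ngfr, the p75 neurotrophin receptor, was the 1 called gene of 11 neurotrophin genes (0.99, adjusted p = 0.00937), whereas Ntrk2, the Bdnf receptor, was not called (-0.04, adjusted p = 0.8702).

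Histone genes, which package DNA, were also among the rising genes. Of 17 tested linker and core histone genes 4 rose (median 0.24), where 3.48% of all genes tested did. Hist1h1c, linker histone H1.2, was at 14.3, 18.1, 17.2, 14.1 and 15.3 CPM in WT SH and 32.9, 49.6 and 38.9 CPM in WT EE (log2 fold change 1.35 ± 0.17 (SE), adjusted p = 1.52e-05), and its unused libraries held 15.2 and 14.7 CPM in EE and 19.6 CPM in SH. The core histones Hist1h2bc (0.57, adjusted p = 0.00315) and Hist1h2be (0.72, adjusted p = 0.0196) were higher in all 5 EE than in all 6 SH libraries, where 0.455% of all genes tested were. These libraries include the 8 that gave the calls, so nothing is read from that. For Hist1h2bc the lowest EE value was 25.2 CPM, in 31B, and the highest SH value 24.8 CPM, in library 11. Replication-dependent histone messages mostly lack the poly-A tail that the library preparation selected, so these counts cover the polyadenylated part.

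Lists of neighbouring regions and of matrix and hormone response genes were read beside the same shares over all genes tested, 3.48% higher and 0.0695% lower. Of 13 thalamic genes Patj (0.67, adjusted p = 0.0163) and Ramp3 (0.61, adjusted p = 0.0362) rose and Lhx9 fell, but over the 22 libraries, which include library 12 with its high Tcf7l2, Patj was at -0.28 and Ramp3 at -0.65. Of 15 striatal genes 1 rose, the dopamine signalling protein Ppp1r1b (0.75, adjusted p = 0.0108), while 12 lay below 0 (median -0.22). Ppp1r1b overlapped between the groups, with 59.1 CPM in SH library 14 and 53.4 CPM in EE library 17. The unused EE libraries held 27.4 and 30.2 CPM of it, and the unused SH library 42.1 CPM. None of 16 cortical genes was called. Of 18 perineuronal and tenascin matrix genes Tnc and B3gat2 fell (median -0.09), and none of 20 glucocorticoid response genes was called (median 0.15).

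Over all 11 WT libraries that passed quality control, 85 genes (0.455% of those tested) were higher in every EE than in every SH library and 129 (0.69%) were lower. Of the 85, 9 were among the 651 rising genes, and of the 129, 4 were among the 13. Most of the lower genes differed little, with 107 of 129 within 0.38 of 0 on the log2 scale over 22 libraries, and a median of -0.21. Members of the neuronal and glial lists among the lower genes were Gap43 and Stmn2 (pan-neuronal), Cacng5 and Necab2 (CA2 and CA3), Sox1 and Sox2, Slc6a11, Tspan2, and Gpr34, Laptm5 and Sall1. Klhl14, with a log2 fold change of -0.66 over 22 libraries, was at 0.983, 1.08, 1.43, 1.51 and 1.49 CPM in retained and 1.21 CPM in unused SH libraries, and 0.844, 0.442 and 0.948 CPM in retained and 0.895 and 0.884 CPM in unused EE libraries. Nr3c1, the glucocorticoid receptor, was also lower, and Sgk1, a glucocorticoid-induced kinase, was higher, at 49.95 ± 2.76 CPM in WT SH and 73.99 ± 19.3 CPM in WT EE (0.57, adjusted p = 0.223).

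**Figure D5:**
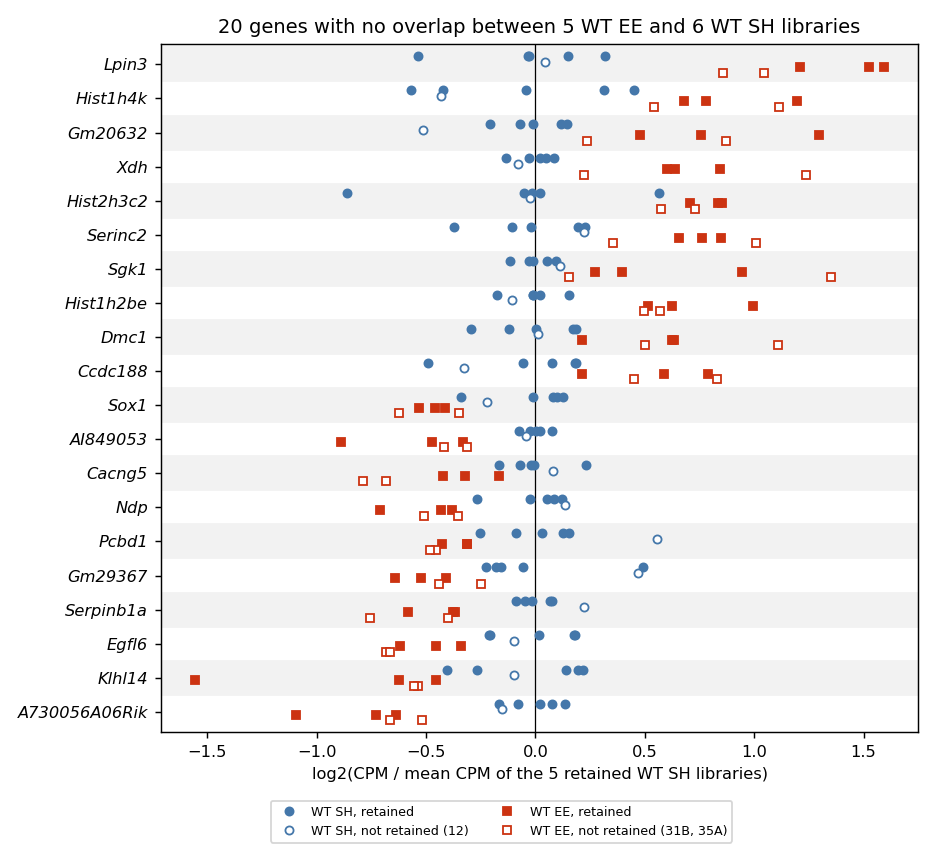
The 20 genes with the largest log2 fold change over 22 libraries (10 in each direction, mean CPM of at least 1) among those whose 5 WT EE and 6 WT SH libraries do not overlap. Points are libraries, placed at the log2 of CPM over the mean of the 5 retained WT SH libraries, with open symbols for unused libraries, and they show all red squares on 1 side of all blue circles for each gene.

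The same contrast in MSK1 KD mice (4 EE and 5 SH retained libraries, which share no library with WT) was used to ask whether the falls depend on the genotype. None of the 13 genes was called there, and 12 of 13 lay below 0 (between -0.35 and 0.13, median -0.14, against -0.0003 for all genes tested). The difference between genotypes, tested as an interaction, had an unadjusted p under 0.05 for 6, with a lowest adjusted p of 0.871. The 13 were called on their WT fold change, which is part of the interaction, so a small unadjusted p is favoured for them. Tnc had a log2 fold change of 0.13 in MSK1 KD (interaction -0.62 ± 0.17 (SE), unadjusted p = 0.001703, adjusted p = 0.871), and Neurod1 -0.13 (interaction -0.42 ± 0.15 (SE), unadjusted p = 0.0103, adjusted p = 0.875). Over all genes no interaction was called by edgeR, and 1031 had an unadjusted p under 0.05. Egfem1 had an adjusted p of 0.0280 in MSK1 KD but a log2 fold change of -0.35, under the threshold of size. Of the genes named here, Hist1h1c had the lowest interaction p (interaction 1.22 ± 0.24 (SE), unadjusted p = 4.10e-05, adjusted p = 0.384). Neat1 also had a positive value (interaction 0.77 ± 0.19 (SE), unadjusted p = 0.000434, adjusted p = 0.812), and Egr1 (interaction -0.76 ± 0.19 (SE), unadjusted p = 0.000815, adjusted p = 0.836) and Spry4 (interaction -0.68 ± 0.17 (SE), unadjusted p = 0.000671, adjusted p = 0.836) had negative values. A fall called in WT and not in MSK1 KD was therefore not shown to differ between the genotypes.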

How the data were processed

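The labels and the study's methods describe poly-A selected RNA (TruSeq) of whole hippocampus, sequenced as 150 bp paired ends. The authors trimmed reads with Skewer, aligned them with STAR 2.5 to GRCm38, and used HTSeq, unstranded, to count unique reads per gene. The deposited files of the 24 libraries hold these raw counts, and rows outside genes were left out of library sizes and tests. A further table of the authors, with normalized values and comparisons, was not used. The groups came from the labels, and the retained libraries from the study.

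Counts were tested in R 4.3.3 with edgeR 4.0.16 (filterByExpr by group, TMM, a quasi-likelihood fit of 4 group means over 17 libraries, Benjamini-Hochberg adjustment over 18701 of 49568 genes), after the script was tested on simulated data. CPM were scaled over 22 libraries. Members, gene lists and the naming rule were chosen with earlier results of these data known. Named were all falling genes, the 12 rising genes with the highest SH level, the 10 with the lowest adjusted p, up to 4 called or 2 uncalled members of each list, genes of the study's cascade text, and up to 10 genes in each direction without overlap over 11 WT libraries. Others named as examples were chosen after their values were seen. Alternatives were other library sets, DESeq2 1.42.0, its size factors, other filters, the choroid plexus covariate, and each library left out. The non-overlap alternatives were added after seeing the data. No pair of libraries held identical counts. Positions are GENCODE M21.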

Additional observations from a re-analysis of the deposited data

Results flagged for a closer look

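Some retained WT SH libraries stood apart from the other 4 for single named genes, with a gap to the nearest library that exceeded Dixon's critical value of 0.710 as a share of the group's range. This was so for 14 of 135 named genes (10.4%), where chance gives about 1 in 20 groups. Library 11 was highest for 8 of these genes, with Ttr at 686 CPM, Enpp2 at 527 CPM, Ace at 22.1 CPM, Col8a2 at 6.70 CPM, Sema3b at 4.15 CPM, Col8a1 at 3.76 CPM, Cd74 at 2.51 CPM and H2-Aa at 1.598 CPM, and its choroid plexus share, 0.0888% of gene counts, stood apart as well. Library 14 stood apart for Vamp2 at 1284 CPM, Flna at 92.9 CPM, Ppp1r1b at 59.1 CPM and Npc2 at 45.5 CPM. The blood gene Hbb-bs was at 16.4 CPM in library 10, and Gm29367 at 2.59 CPM in library 13. Of the 13 falling genes, none stood apart in this way. They were called from these same libraries, and a small spread favours a call, so nothing is read from that. Over the 6 WT SH libraries that passed quality control, 23 of the 135 named genes (17%) exceeded the critical value of 0.625.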

How the results depend on the processing

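Of the alternatives, those on the libraries and the choroid plexus covariate changed the results most. With 22 libraries 0 genes were called (1598 at an unadjusted p under 0.05), and with all 24 libraries 1 gene, higher. With the covariate, which could not be separated from housing, 0 genes were called. The count of falling genes moved from 13 to 32 by adjusted p alone, 56 without lettered libraries, 29 by DESeq2 and 35 with no filter, while the count of rising genes stayed within 1.5 times under these. Leaving out each library in turn gave 504 to 710 genes called, 488 to 697 higher and 2 (without WT EE 17) to 63 (without WT EE 33A) lower, with 6 lower without WT SH 14 and 20 without KD SH 5. Fold changes that turned direction are log2 values. With 22 libraries they were C1ql3 0.037, Cdhr3 -0.14, Creb1 0.054, Ntrk2 0.0044, Patj -0.28, Ramp3 -0.65, Rarres2 -0.012, and with 24 Cdhr3 -0.14, Creb1 0.053, Map2k2 -0.0082, Patj -0.31, Ramp3 -0.70, Rarres2 -0.032. With the covariate they were A730056A06Rik 0.14, Abhd2 -0.11, Arrdc2 -0.41, Egfl6 0.092, Ermn 0.30, Fzd4 -0.27, Gadd45g -0.24, Gas6 -0.20, Hist1h1e -0.13, Hist1h4k -1.04, Igfbp7 -0.094, Map3k15 -0.16, Ndp 0.11, Plxnb2 -0.26, Rorb 0.18, Rps6ka4 0.038, Serinc2 -0.25, Sfrp1 -0.34, Sgk1 -1.02, Slc12a2 -0.085, Slco1c1 -0.065, Tbc1d9 -0.022, Ttr -0.998. The range over libraries left out was -0.019 to 0.13 for Cdhr3 and -0.11 to 0.026 for Rps6ka4. Interactions turned for Egfem1 (0.091 with 22 and 0.17 with 24 libraries), and ranged over libraries left out from -0.15 to 0.042 for Lhx9 and -0.072 to 0.0074 for Rps6ka5. The cause was not tested. The choroid plexus share differed by 0.488 to 0.547 points with each library left out, 0.269 over 11 and 0.234 over 12 WT libraries. Genes without overlap over 11 libraries numbered 82 higher and 134 lower with DESeq2 scaling, 47 higher and 137 lower with 33B added and the scaling set over 24 libraries, and 109 to 203 higher and 156 to 226 lower with 1 library left out, a count that can only rise when a library is removed. Depth limits calls for scarce genes, since a floor of 3 counts is up to 0.130 CPM. No paired analysis was possible because the groups share no replicate numbers.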

Other observations

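Gm10800, a predicted gene that was picked after its values were seen, was at 352 CPM in WT SH library 13 and 609 CPM in the unused WT SH library 12, and at 0.237 to 0.981 CPM in the other 4 WT SH libraries. In the WT EE libraries that passed quality control it was at 0.0220 to 1.62 CPM, and it was not called (log2 fold change -6.97, adjusted p = 0.0722, edgeR). The WT EE library that failed quality control, 33B, had 0.117% of its gene counts on choroid plexus genes, below the retained WT EE libraries and above the retained WT SH libraries.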
